A study of Rattus norvegicus with 11 samples.

Results

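The genes described here encode proteins of the synaptic vesicle and of the machinery that fuses it with the cell membrane, and were followed across 11 RNA libraries of rat hippocampal neurons. The genes were fixed by name (Syp, Syn1, Syn2, Syt1, Snap25, Vamp2, Stx1a, Sv2a and Slc17a7), and the row with exactly that symbol was taken from each count file, which gave 9 of 42172 genes. All cultures were primary hippocampal neurons of Sprague Dawley rats at day 7 in vitro, and each culture carried an added gene. In 4 libraries (WT H1.4) that gene encoded the unmutated linker histone H1.4, a protein that binds DNA at the nucleosome, in 4 (H1.4 CFT) H1.4 with a frameshifted C-terminal tail, and in 3 control libraries (GFP) the green fluorescent protein. The labels give neither how the gene was delivered, nor its promoter, nor the species of the H1.4 sequence, nor the share of cells that carried it. No change to the rat's own H1 genes is described, and the libraries are called biological replicates, without saying whether they came from separate animals. Libraries are named here by group and label number, running from 1 to 4 in both H1.4 groups and from 2 to 4 in GFP.

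Synaptic vesicles store transmitter in axon terminals. Slc17a7 (VGLUT1) loads them with glutamate, the membrane proteins Syp (synaptophysin) and Sv2a sit in their wall, and the synapsins Syn1 and Syn2 tether them to each other and to actin. Fusion is driven by a SNARE complex of vesicle Vamp2 (synaptobrevin) with Stx1a (syntaxin) and Snap25 on the cell membrane, and Syt1 (synaptotagmin) is the calcium sensor that triggers it. In cultured hippocampal neurons these genes rise as synapses form, and synapsin and synaptophysin serve as presynaptic markers.

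Promoter sequences were looked up since several of the genes moved together, and 5 are shown: those of the members with the largest differences between WT H1.4 and H1.4 CFT (Syt1, Syp and Syn1) and of a pair that did not pass over all libraries in that comparison but differed in opposite directions between library numbers (Stx1a and Slc17a7). Each runs 5′ to 3′ in the direction of the gene, from 250 bases before to 50 after 1 annotated start, as given by RefSeq on the GRCr8 build. Capitals mark the GC box (GGGCGG, the core bound by Sp1-type factors) and the cyclic AMP response element (CRE, TGACGTCA), on either strand. Syt1 lies at chr7:46244164-46244463 on the minus strand, Syp at chrX:17536400-17536699 on the minus strand and Syn1 at chrX:3725495-3725794 on the plus strand. Stx1a lies at chr12:27306422-27306721 on the minus strand and Slc17a7 at chr1:104785955-104786254 on the plus strand.
Syt1: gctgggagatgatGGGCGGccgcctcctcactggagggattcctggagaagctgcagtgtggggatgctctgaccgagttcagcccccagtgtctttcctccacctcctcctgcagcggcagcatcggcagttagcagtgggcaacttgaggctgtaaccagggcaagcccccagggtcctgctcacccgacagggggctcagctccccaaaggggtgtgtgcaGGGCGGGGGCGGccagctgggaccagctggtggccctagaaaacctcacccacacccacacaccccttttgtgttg
Syp: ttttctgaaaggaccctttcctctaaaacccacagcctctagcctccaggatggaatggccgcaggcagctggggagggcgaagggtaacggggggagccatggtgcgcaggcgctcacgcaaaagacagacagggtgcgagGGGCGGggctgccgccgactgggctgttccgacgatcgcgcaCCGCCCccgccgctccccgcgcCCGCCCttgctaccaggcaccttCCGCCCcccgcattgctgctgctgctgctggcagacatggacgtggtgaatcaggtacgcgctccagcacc
Syn1: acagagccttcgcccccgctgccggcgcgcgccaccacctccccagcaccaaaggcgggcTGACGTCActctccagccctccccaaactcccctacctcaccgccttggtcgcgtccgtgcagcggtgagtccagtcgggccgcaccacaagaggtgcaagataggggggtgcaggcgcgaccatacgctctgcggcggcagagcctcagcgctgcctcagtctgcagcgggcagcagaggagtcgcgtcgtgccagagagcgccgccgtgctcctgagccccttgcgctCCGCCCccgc
Stx1a: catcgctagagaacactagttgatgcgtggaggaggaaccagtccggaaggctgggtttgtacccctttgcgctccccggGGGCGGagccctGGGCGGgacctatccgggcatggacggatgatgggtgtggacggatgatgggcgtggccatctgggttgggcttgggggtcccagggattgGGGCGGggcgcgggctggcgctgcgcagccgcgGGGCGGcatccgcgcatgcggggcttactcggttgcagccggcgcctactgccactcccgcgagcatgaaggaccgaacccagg
Slc17a7: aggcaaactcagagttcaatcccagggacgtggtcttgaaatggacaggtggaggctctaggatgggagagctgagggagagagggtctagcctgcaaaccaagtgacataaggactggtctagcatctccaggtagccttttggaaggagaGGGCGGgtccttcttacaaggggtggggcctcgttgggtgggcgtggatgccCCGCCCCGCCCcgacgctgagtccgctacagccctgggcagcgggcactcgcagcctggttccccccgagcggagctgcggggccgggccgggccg

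The promoter table held 8 of the 9 genes, with no entry for Snap25. A GC box was found in 7 of the 8 (all but Sv2a), against 33.1% of all 33469 promoters in the table and 54.4% of the 15122 promoters of genes tested here. It occurred 4 times in Syp and in Stx1a and 3 times in Syt1 and in Slc17a7. Syn1 was the 1 gene with a full CRE, starting 190 bases before its start, a sequence in 2.68% of the promoters of tested genes. The shorter form TGACG, which the full CRE contains, was in Syn1 and Vamp2 and in 27.8% of the promoters of tested genes. A TATA box (TATAAA, 7.97% of those promoters), an E box (CACGTG, 8.62%) and a core of the neuronal repressor element RE1 (0.0661%) were in none of the 8 windows. The RE1 core was searched as 1 exact sequence, found in 12 of all 33469 promoters. No match in 8 windows of 300 bases was therefore likely from the start, and it does not show that these genes lack an RE1. The 8 promoters were rich in G and C, with a median of 67.3% and a range of 60.0% to 71.0%, against a median of 59.3% for tested genes.

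Each library held from 12070941 to 18846492 counts on genes, and 17294 genes passed the filter on low counts, among them all 9 members. The members had between 1769 (Stx1a, GFP 3) and 9061 (Syp, GFP 4) counts in a library. Levels are given as CPM (counts in proportion to library size, with TMM scaling), and since they are not corrected for transcript length they are compared between groups and never between genes. The rat H1f4 gene, the endogenous gene of this histone, had 0 to 8 counts in every library, so the added H1.4 is not visible under that symbol. Among markers of the cultured cells, all 16 pan-neuronal genes were detected. Of 10 excitatory markers Neurod1 was at 0 in all 11 libraries, which allows at most 0.156 to 0.252 CPM per library (counting error only). Reads of genes on opposite strands may not be separable, since the strand setting of the counting is not given. In the GRCr8 gene table Syn1, Syn2, Syt1 and Snap25 overlap other genes, and the other 5 members overlap none. Of 15 such overlapping genes 6 could be tested. Araf (73.7 to 87.9 CPM over all libraries), LOC102555453 (8.65 to 12.2 CPM) and Timp1 (5.52 to 8.57 CPM) in Syn1, and Timp4 (5.51 to 7.69 CPM) in Syn2, passed in no comparison. The long noncoding LOC120093799 in Syt1 averaged 58.3 CPM in H1.4 CFT, 84.0 CPM in WT H1.4 and 89.3 CPM in GFP. It was lower in H1.4 CFT in both comparisons (log2 fold change of -0.53 versus WT H1.4, adjusted p = 0.000167, and -0.62 versus GFP, adjusted p = 0.000114), so it moved with Syt1, and its part in the Syt1 counts was not tested. The long noncoding LOC108350472 in Snap25 was lower in H1.4 CFT versus GFP alone of the 3 comparisons (-0.35, adjusted p = 0.00174). Another 2 had at most 0.727 CPM in any library, and the other 7, among them Brcc3dc in Syt1, were not analysed here.

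Neurons with H1.4 CFT had less RNA of Syp, Syn1, Syt1, Vamp2 and Sv2a than neurons with WT H1.4, by 1.13-fold to 1.44-fold. These 5 of 9 genes passed an adjusted p of 0.05 in edgeR's quasi-likelihood test, all of them lower, where 19.2% of all 17294 genes were called lower and 16.7% higher. In the same 5 genes every H1.4 CFT library lay below every WT H1.4 library, which holds for 18.5% of all genes. Syn2, Snap25, Stx1a and Slc17a7 did not pass. Against GFP, 6 genes were lower in H1.4 CFT (the same 5 and Slc17a7), where 29.5% of all genes were called, 16.2% lower and 13.3% higher. WT H1.4 against GFP gave 0 of 9 (4 at an unadjusted p under 0.05, 1 in DESeq2 and 0 in limma-voom), where 0.943% of all genes were called and 11.5% had an unadjusted p under 0.05. The median log2 fold change of the 9 genes was -0.17 in H1.4 CFT versus WT H1.4, -0.26 in H1.4 CFT versus GFP and -0.042 in WT H1.4 against GFP, and that of all genes lay between -0.0011 and 0.018. The H1.4 CFT libraries enter both of the first comparisons, so their counts are not independent of each other. In bulk RNA a smaller number of neurons or synapse-bearing cells and less RNA per cell cannot be told apart.

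**Figure D1:**
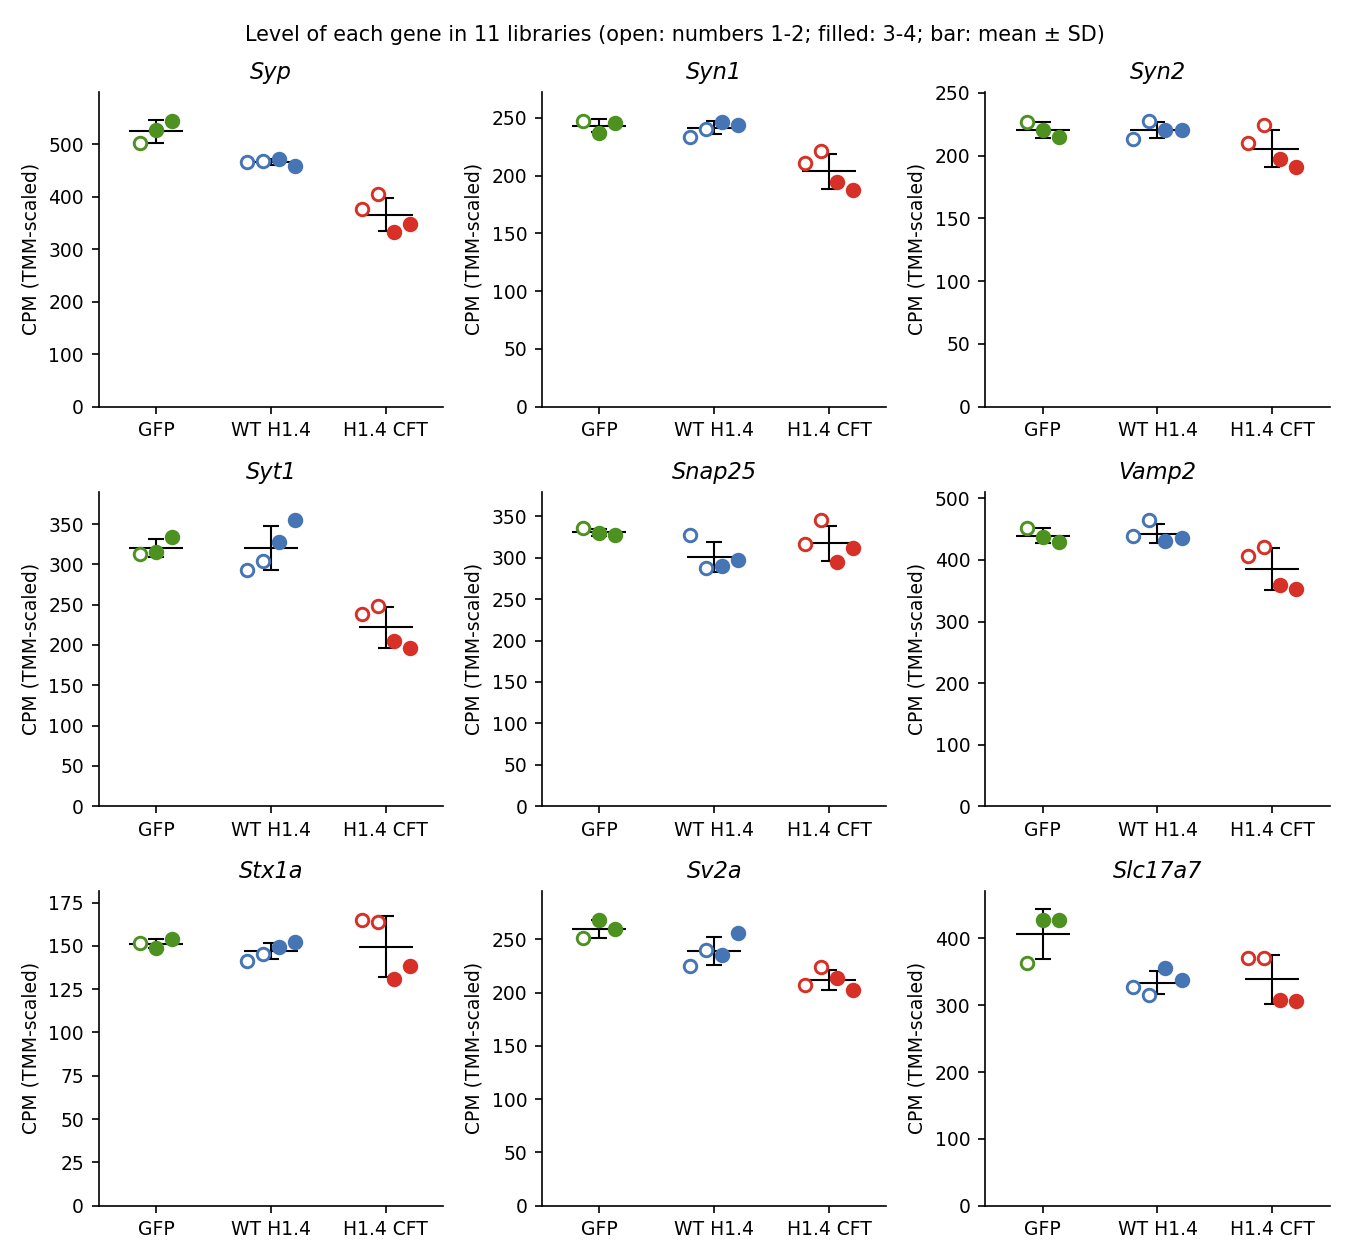
TMM-scaled CPM (vertical axes, from 0) of each of the 9 genes in the GFP, WT H1.4 and H1.4 CFT libraries, 1 point per library, with the mean ± SD of each group. Open points are libraries numbered 1 and 2 and filled points those numbered 3 and 4. In Syp, Syn1, Syt1, Vamp2 and Sv2a all 4 H1.4 CFT points lie below all WT H1.4 and GFP points.

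Among the vesicle wall proteins, Syp gave the smallest p-values. It read 465, 468, 471 and 457 CPM in WT H1.4 libraries 1 to 4, 376, 404, 333 and 348 CPM in H1.4 CFT libraries 1 to 4, and 502, 527 and 545 CPM in GFP libraries 2 to 4. The 3 groups did not overlap, with GFP highest and H1.4 CFT lowest. Syp fell 1.27-fold in H1.4 CFT versus WT H1.4 (log2 fold change of -0.35, SE of 0.050, adjusted p = 2.91e-05) and 1.44-fold versus GFP (-0.52 with an SE of 0.054, adjusted p = 1.19e-06). WT H1.4 against GFP gave -0.17 (SE 0.054), which did not pass after adjustment (adjusted p = 0.162), so the order of GFP and WT H1.4 is not established by the test.

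Sv2a, which helps to ready vesicles for release and is the target of the antiepileptic drug levetiracetam, differed less. Its levels were 225, 239.8, 235 and 256 CPM in WT H1.4, 207, 224, 214 and 202 CPM in H1.4 CFT, and 252, 268 and 260.0 CPM in GFP. The highest H1.4 CFT library lay just below the lowest of WT H1.4, and WT H1.4 and GFP overlapped. Sv2a fell 1.13-fold against WT H1.4 (log2 fold change of -0.17, SE of 0.045, adjusted p = 0.00511) and 1.23-fold relative to GFP (-0.30, SE of 0.049, adjusted p = 0.000143).

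The synapsin genes did not both pass. Syn1 read 234, 240.2, 247 and 244 CPM in WT H1.4, 210.4, 221, 195 and 188 CPM in H1.4 CFT, and 248, 237 and 245 CPM in GFP. WT H1.4 and GFP libraries overlapped and all H1.4 CFT libraries lay below both. Syn1 fell 1.19-fold against WT H1.4 (log2 fold change of -0.25, SE of 0.047, adjusted p = 0.000436) and 1.19-fold relative to GFP (-0.26, SE of 0.051, adjusted p = 0.000743). Syn2 read 213, 228, 220.0 and 220.4 CPM in WT H1.4, 210.3, 224, 198 and 191 CPM in H1.4 CFT, and 227, 220.0 and 214 CPM in GFP. Its groups overlapped: H1.4 CFT libraries 1 and 2 sat near the others while 3 and 4 lay below them. The log2 fold change of Syn2 was -0.10 in H1.4 CFT versus WT H1.4 (95% interval -0.20 to -0.0019, adjusted p = 0.104) and -0.10 against GFP (-0.21 to 0.0050, adjusted p = 0.144). Without H1.4 CFT library 2 it passed in both comparisons (-0.14 in each, adjusted p = 0.0169 and 0.0286).

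Syt1, the calcium sensor, had the largest fold difference among the members between WT H1.4 and H1.4 CFT. It read 293, 305, 328 and 355 CPM in WT H1.4, 238, 248, 205 and 196 CPM in H1.4 CFT, and 313, 316 and 333 CPM in GFP. All H1.4 CFT libraries lay below the others, and the GFP libraries fell within the range of WT H1.4. Syt1 fell 1.44-fold against WT H1.4 (log2 fold change -0.53, 95% interval -0.70 to -0.36, adjusted p = 0.000192) and 1.45-fold against GFP (-0.53, -0.71 to -0.35, adjusted p = 0.000414). Between WT H1.4 and GFP the log2 difference was -0.0024 with an interval of -0.18 to 0.18.

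Of the 3 SNARE genes Vamp2, the vesicle SNARE, was the 1 that passed over all libraries, against WT H1.4 and against GFP. Vamp2 read 439, 465, 431 and 435 CPM in WT H1.4, 406, 421, 359 and 352 CPM in H1.4 CFT, and 452, 437 and 429.6 CPM in GFP. WT H1.4 and GFP overlapped, and the highest H1.4 CFT library was below all of them. Vamp2 fell 1.15-fold against WT H1.4 (log2 fold change of -0.20, SE of 0.051, adjusted p = 0.00446) and 1.14-fold relative to GFP (-0.19, SE of 0.056, adjusted p = 0.0126). The call against GFP rested on GFP library 2, without which the adjusted p was 0.0547.

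The SNAREs of the cell membrane passed in no comparison of all libraries. Snap25 read 327, 287, 290.3 and 297 CPM in WT H1.4, 316, 345, 295 and 312 CPM in H1.4 CFT, and 336, 329.9 and 327 CPM in GFP. All 3 groups overlapped, with H1.4 CFT between the others on average. Its log2 fold change was 0.077 against WT H1.4 (95% interval -0.025 to 0.18, adjusted p = 0.234) and -0.061 against GFP (-0.17 to 0.050, adjusted p = 0.421). Stx1a read 141, 145, 149.5 and 152 CPM in WT H1.4, 165, 164, 131 and 138 CPM in H1.4 CFT, and 151, 148 and 154 CPM in GFP. Here H1.4 CFT libraries 1 and 2 were the highest of all 11 and libraries 3 and 4 the lowest, so that the group mean of 149.5 ± 17.6 CPM (SD, n = 4) fell between those of WT H1.4 (147 ± 4.73, n = 4) and GFP (151 ± 2.73, n = 3). The log2 fold change of Stx1a was 0.024 against WT H1.4 (-0.11 to 0.16, adjusted p = 0.793) and -0.018 against GFP (-0.16 to 0.13, adjusted p = 0.877).

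Slc17a7, the glutamate transporter of excitatory terminals, read 327, 315, 357 and 337 CPM in WT H1.4, 371, 371, 308 and 307 CPM in H1.4 CFT, and 364, 428 and 428 CPM in GFP. GFP libraries 3 and 4 stood above all others, and the H1.4 CFT libraries fell on both sides of WT H1.4. It fell 1.20-fold in H1.4 CFT versus GFP (log2 fold change -0.26, SE 0.081, adjusted p = 0.0271), although H1.4 CFT libraries 1 and 2 were above GFP library 2. With the replicate number as a block the same comparison gave -0.28 and no longer passed (adjusted p = 0.0620). The call was also lost without H1.4 CFT 3 (adjusted p = 0.0603), H1.4 CFT 4 (0.0651), GFP 3 (0.0975) or GFP 4 (0.102). Against WT H1.4 the log2 fold change was 0.022 (95% interval -0.14 to 0.18, adjusted p = 0.844).

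Between WT H1.4 and GFP no member passed in edgeR, where 0.509% of all genes were called lower and 0.434% higher. At an unadjusted p under 0.05 there were 4 members, all lower in WT H1.4: Slc17a7 (log2 fold change -0.28), Syp (-0.17), Snap25 (-0.14) and Sv2a (-0.12). Of all genes, 5.74% met that unadjusted threshold as lower and 5.81% as higher. In Slc17a7 and Syp the libraries of both groups did not overlap, which holds in that direction for 5.94% of all genes and in the other for 6.29%. The member that DESeq2 called was Slc17a7 (adjusted p = 0.0332). Without GFP 2 edgeR called Slc17a7 as well (-0.36, adjusted p = 0.0376). For Syn1, Syn2 and Vamp2 the log2 differences between WT H1.4 and GFP were -0.012, -0.0013 and 0.0099, with intervals that reached from -0.12 to 0.13.

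**Figure D2:**
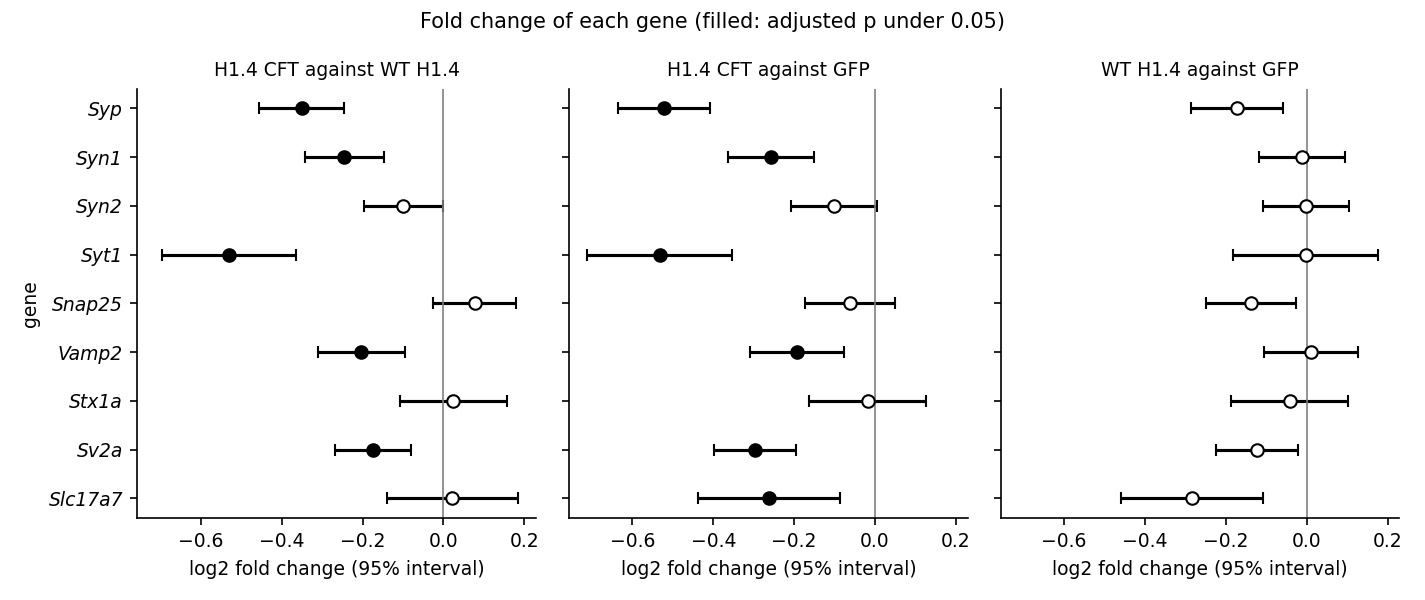
Log2 fold change (horizontal axes) of each of the 9 genes with its 95% interval, for H1.4 CFT versus WT H1.4 (left), H1.4 CFT versus GFP (middle) and WT H1.4 versus GFP (right). Filled points passed an adjusted p of 0.05: 5 in the first comparison, 6 in the second and 0 in the third.

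Within H1.4 CFT the libraries numbered 1 and 2 differed from those numbered 3 and 4, and this touches most of the members. Over all genes, the variance between libraries of a group was 1.78 to 2.22 times that of counting within the number pairs and 3.67 to 9.19 times across them, the highest values being in H1.4 CFT. No label names a batch, so each comparison is given within the pairs as well. All 9 genes had a lower mean in H1.4 CFT libraries 3 and 4 than in 1 and 2. Syt1, for example, averaged 243 CPM in H1.4 CFT 1 and 2 and 200.5 CPM in 3 and 4, against 299 and 342 CPM in the same numbers of WT H1.4.

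In libraries 1 and 2 alone, Syp (-0.26), Syn1 (-0.13), Syt1 (-0.30), Vamp2 (-0.13) and Sv2a (-0.11) lay below WT H1.4 in the H1.4 CFT neurons on the log2 scale. These 5 passed (adjusted p from 2.03e-08 for Syt1 to 0.0459 for Sv2a), where 15.7% of the genes tested were called lower. Stx1a (0.20, adjusted p = 0.000233) and Slc17a7 (0.21, adjusted p = 5.87e-06) passed in the other direction, where 12.3% were called higher, and Syn2 and Snap25 did not pass. Libraries 3 and 4 alone gave 8 genes lower in H1.4 CFT, where 23.7% of genes were called lower and 20% higher. The log2 differences were -0.45 for Syp, -0.36 for Syn1, -0.19 for Syn2, -0.77 for Syt1, -0.29 for Vamp2, -0.17 for Stx1a, -0.24 for Sv2a and -0.18 for Slc17a7. Snap25 did not pass there (0.044, adjusted p = 0.356). Thus Syp, Syn1, Syt1, Vamp2 and Sv2a were lower within both pairs, while Stx1a and Slc17a7 changed direction between them. With 2 libraries in each group these fits have few degrees of freedom among samples and lean on the spread shared across genes. Their p-values measure the spread within a number pair, which was smaller than that across pairs.

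The difference between the pairs was then tested itself, as a group by number-pair term for H1.4 CFT and WT H1.4 in a fit of all 11 libraries with 5 residual degrees of freedom. It was below 0 for all 9 genes, with a median of -0.19 against -0.011 for all genes. It passed for 6 genes: Syp (-0.19, adjusted p = 0.00615), Syn1 (-0.23, adjusted p = 0.00259), Syt1 (-0.47, adjusted p = 8.38e-10), Vamp2 (-0.16, adjusted p = 0.0237), Stx1a (-0.36, adjusted p = 9.02e-06) and Slc17a7 (-0.38, adjusted p = 2.05e-08). The background of that term was 8.14% of genes called lower and 2.04% called higher. Syn2 (-0.16, adjusted p = 0.0529), Sv2a (-0.13, adjusted p = 0.177) and Snap25 (-0.054, adjusted p = 0.713) did not pass. This test was added after the split of the libraries had been seen. Its p-values, like those within libraries 3 and 4, measure the spread within number pairs and not that across them. GFP has no library 1, so libraries 3 and 4 alone were compared with it. All 9 members passed there as lower in H1.4 CFT, with log2 differences from -0.11 for Snap25 to -0.70 for Syt1, where 21.6% of genes were called lower and 17.2% higher. In the same libraries WT H1.4 was lower than GFP in Slc17a7 (-0.30), Syp (-0.20) and Snap25 (-0.16), where 3.75% of genes were called lower and 5.5% higher.

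**Figure D3:**
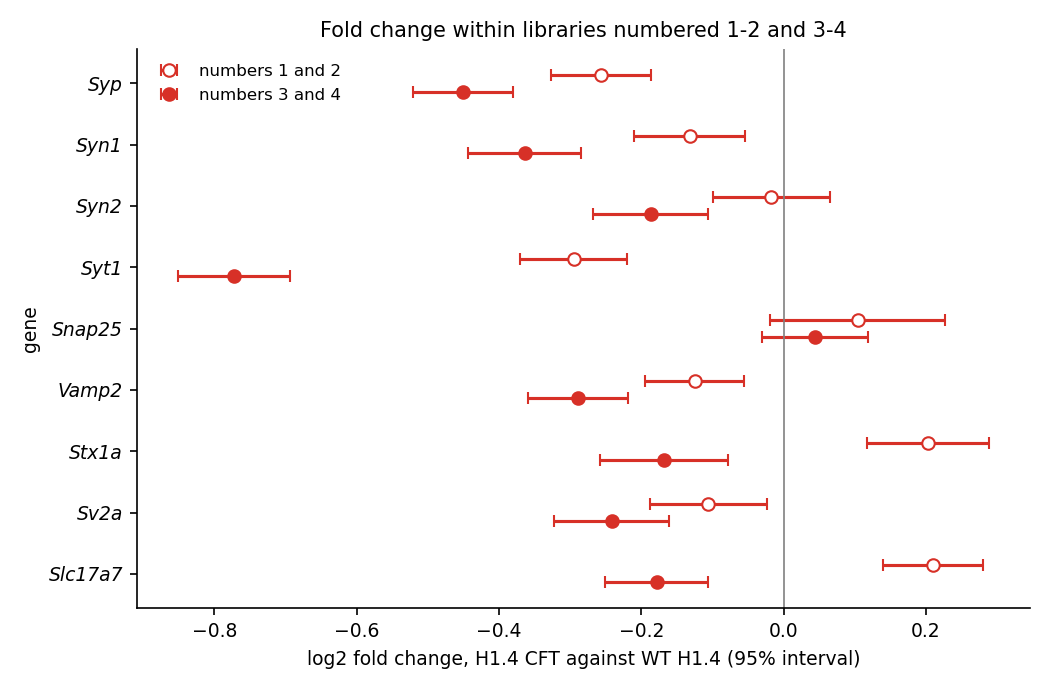
Log2 fold change (horizontal axis) of H1.4 CFT versus WT H1.4 with its 95% interval for each of the 9 genes, in libraries numbered 1 and 2 (open) and 3 and 4 (filled). Every filled point lies to the left of its open partner, and for Stx1a and Slc17a7 the points lie on opposite sides of 0.

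The pan-neuronal and excitatory marker sums were lower in every H1.4 CFT library than in all libraries of the other groups. The inhibitory and astrocyte sums were not. The summed level of the 16 pan-neuronal genes was 11958 to 12220 CPM in WT H1.4, 11264 to 11897 CPM in GFP and 8254 to 9726 CPM in H1.4 CFT. Of these 16, 12 fell in H1.4 CFT versus WT H1.4 and 0 rose, where 19.2% of all genes were called lower and 16.7% higher. The median log2 fold change of the 16 was -0.45. Within H1.4 CFT the sum was 9618 and 9726 CPM in libraries 1 and 2 and 8254 and 8259 CPM in libraries 3 and 4, the same split as in the members. The 9 members together made 22.0 to 22.8 counts per 100 pan-neuronal counts in WT H1.4, 23.9 to 25.8 in GFP and 26 to 27.1 in H1.4 CFT. Set against that sum, the members were thus highest in H1.4 CFT. The sum is weighted to its abundant genes, such as Mapt (2448 CPM in WT H1.4, 1761 CPM in H1.4 CFT) and Tubb3 (1662 and 1237 CPM). Other markers of the list differed little, such as Elavl3 (602 and 592 CPM) and Ina (388 and 393 CPM). The ratio therefore depends on which markers are summed. As a share of all gene counts they made 0.255% and 0.267% in H1.4 CFT 1 and 2 and 0.235% and 0.236% in 3 and 4, against 0.261% to 0.267% in WT H1.4 and 0.280% to 0.289% in GFP.

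The 10 excitatory markers, which include the transporter gene Slc17a6, summed to 1224 to 1256 CPM in WT H1.4, 1279 to 1334 CPM in GFP and 839 to 1032 CPM in H1.4 CFT. Inhibitory markers (14 genes, with Slc32a1) summed to 320 to 356 CPM in WT H1.4, 403 to 455 CPM in GFP and 364 to 388 CPM in H1.4 CFT. Of the 12 tested, 6 rose and 1 fell in H1.4 CFT versus WT H1.4 (of all genes, 16.7% higher and 19.2% lower). In WT H1.4 against GFP 6 fell and 0 rose (0.509% lower, 0.434% higher). In H1.4 CFT versus GFP 3 fell and 1 rose (16.2% lower, 13.3% higher). Astrocyte markers (11 genes) summed to 1694 to 1824 CPM in WT H1.4, against 2145 to 2301 CPM in GFP and 2215 to 2303 CPM in H1.4 CFT. Of these 11, 7 rose and 0 fell in H1.4 CFT versus WT H1.4, where 16.7% of all genes were called higher and 19.2% lower. In WT H1.4 against GFP 6 fell and 0 rose, where 0.509% of all genes were called lower and 0.434% higher. Oligodendrocyte lineage markers overlapped between all groups, and microglial markers summed to at most 14.3 CPM in any library. Endothelial, mural and fibroblast markers (13 genes) summed to 94.2 to 106.6 CPM in GFP, above the 65.7 to 82.3 CPM of WT H1.4 and the 76.9 to 88.0 CPM of H1.4 CFT. Of the 11 tested, 4 rose and 1 fell in H1.4 CFT versus WT H1.4. In WT H1.4 against GFP 3 fell and 0 rose. In H1.4 CFT versus GFP 1 rose and 1 fell, not above the shares of all genes (13.3% higher, 16.2% lower). The share of mitochondrially encoded RNA was 3.07% to 3.31% of gene counts in H1.4 CFT and 2.57% to 2.92% in the other groups. The part of these cell and library measures in the levels of the members was not tested.

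A wider list of 115 genes of the vesicle cycle, without the 9 members, held called genes in both directions in each of its 6 classes. Of 111 tested genes, 54 were lower and 13 higher in H1.4 CFT versus WT H1.4 and 44 did not pass, where 19.2% of all genes were called lower and 16.7% higher. The median log2 fold change of the list was -0.12 against 0.018 for all genes. Against GFP 50 were lower and 10 higher and 51 did not pass, where 16.2% of all genes were called lower and 13.3% higher. WT H1.4 against GFP, where 0.509% of all genes were called lower and 0.434% higher, gave 1 higher (Syt6, 18.3 ± 0.566 against 13.6 ± 1.57 CPM) and 1 lower (Slc32a1, the transporter of inhibitory vesicles, 19.0 ± 1.01 against 26.2 ± 2.09 CPM), as means ± SD of 4 and 3 libraries. These 2 were named after their values were seen. Sypl2, Syt10, Slc18a3 and Cplx3 had too few counts to test.

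In the class of vesicle membrane and vesicle-associated proteins, 13 of 22 genes were lower and 1 higher in H1.4 CFT versus WT H1.4. Of all genes 19.2% were called lower and 16.7% higher. The median log2 fold change of the class was -0.30. Rab3b, a small GTPase of vesicle docking, fell 2.14-fold, from 17.1 ± 1.44 CPM in WT H1.4 to 8.02 ± 2.29 CPM in H1.4 CFT (n = 4 each, adjusted p = 4.36e-05), and was at 21.3 ± 0.109 CPM in GFP. Its partner protein gene Rph3a (rabphilin) fell 1.36-fold (log2 fold change -0.44) and the synaptophysin relative Syngr3 fell 1.31-fold (-0.38). These 3 also fell against GFP, by 2.66-fold, 1.44-fold and 1.31-fold.

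Of the synaptotagmins 6 of 12 were lower in the same comparison, where 19.2% of all genes were called lower. Another 2 were higher, at the share of all genes called higher (16.7%). Syt17 fell 2.29-fold against WT H1.4 (adjusted p = 9.11e-05), at 4.63 ± 1.60 against 10.6 ± 0.893 CPM, and 2.61-fold against GFP. Syt4, a form linked to dense-core vesicles, fell 1.75-fold (379 ± 62.5 against 663 ± 26.1 CPM). Syt3 rose 1.57-fold (57.2 ± 3.75 against 36.4 ± 2.63 CPM, adjusted p = 8.23e-07), and its H1.4 CFT libraries lay above all others.

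Transmitter transporters and proton pump genes gave 6 of 14 lower, where 19.2% of all genes were called lower. Another 2 were higher, not above the share of all genes called higher (16.7%). The pump that acidifies vesicles was lower in its accessory gene Atp6ap2 (1.19-fold, log2 fold change -0.25) and its membrane subunit gene Atp6v0a1 (1.21-fold, -0.27). Slc17a6 (VGLUT2), another vesicular glutamate transporter, fell 1.39-fold (19.9 ± 0.934 against 27.6 ± 3.65 CPM, adjusted p = 0.000551). Slc30a3 (ZnT3), which loads zinc into glutamate vesicles, fell 1.73-fold against WT H1.4 (adjusted p = 0.00977, with overlapping groups) and 2.24-fold against GFP (2.43 ± 0.769 against 5.47 ± 0.897 CPM, adjusted p = 0.00109).

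Of the SNAREs outside the members, 5 of 20 were lower and 5 higher, each near the share of all genes (19.2% lower, 16.7% higher). The endosomal syntaxin gene Stx7 fell 1.19-fold (312 ± 15.5 against 373 ± 11.7 CPM, adjusted p = 0.000107). Stx2, a syntaxin of the cell membrane found in many tissues, rose 1.36-fold (59.3 ± 6.01 against 43.7 ± 1.75 CPM, adjusted p = 3.48e-05).

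Regulators of SNARE assembly gave 9 of 17 lower, where 19.2% of all genes were called lower. Another 2 were higher, not above the share of all genes called higher (16.7%). Cadps2, a priming factor of dense-core vesicles, fell 2.02-fold (18.9 ± 3.05 against 38.3 ± 2.95 CPM, adjusted p = 4.18e-07). Napb, a SNAP protein gene that acts with NSF to take SNARE complexes apart after fusion, fell 1.51-fold (log2 fold change -0.59). In the endocytosis class, 15 of 26 were lower and 1 higher, where 19.2% of all genes were called lower and 16.7% higher. The scaffold gene Itsn1 was at -0.42 and the clathrin adaptor genes Snap91 (AP180) and Picalm at -0.28 and -0.22 on the log2 scale.

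**Figure D4:**
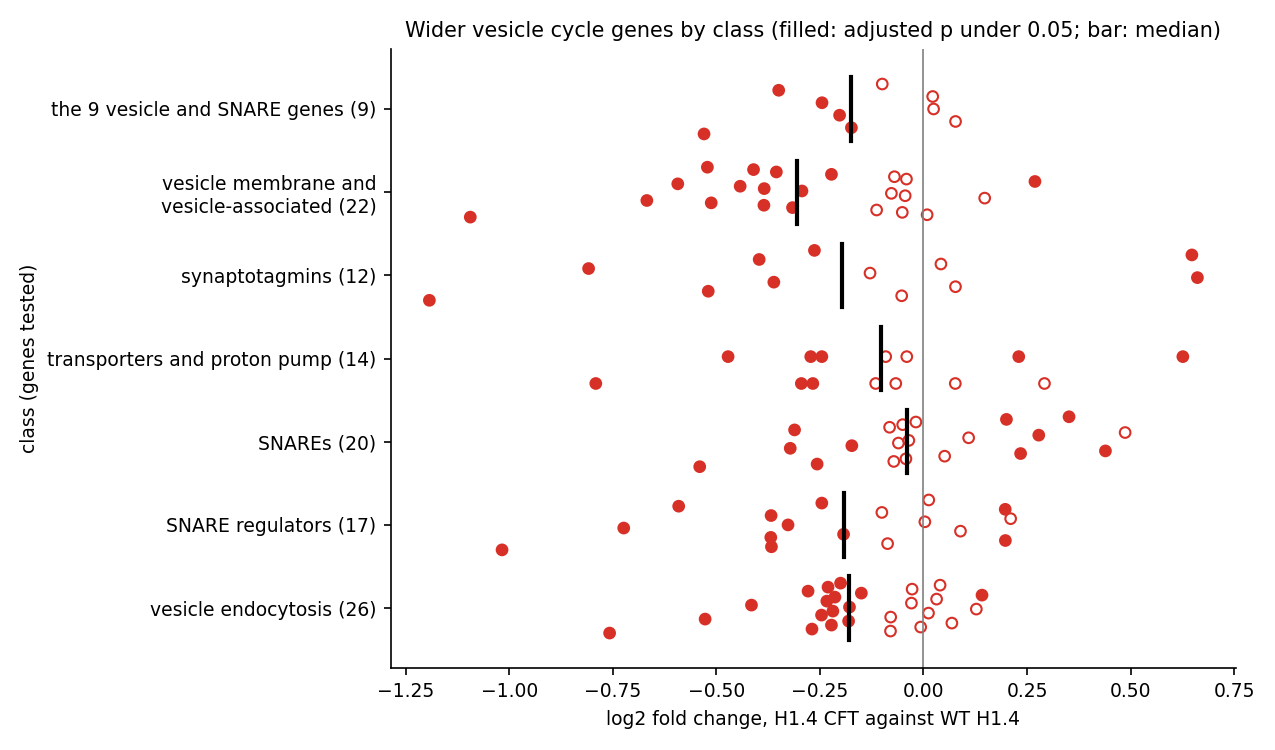
Log2 fold change (horizontal axis) of H1.4 CFT versus WT H1.4 for the 9 members and the 111 tested genes of 6 wider classes, 1 point per gene, with the median of each class as a bar. Filled points passed an adjusted p of 0.05. The medians run from -0.30 in the vesicle membrane class to -0.039 in the SNAREs, and each wider class holds filled points on both sides of 0.

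Each of 7 members was also set against a related gene in the same library, as the log2 ratio of their counts, a measure that needs no scaling between libraries. Length differs between the genes of a pair, so the ratio itself is not a ratio of transcripts and only its change between groups is read. The Syt1 count was 31.1 ± 4.35 times that of Syt2 in H1.4 CFT, 70.6 ± 8.47 times in WT H1.4 and 81.6 ± 16.5 times in GFP (SD, n = 4, 4 and 3). This was the largest change in balance, -1.19 on the log2 scale as H1.4 CFT minus WT H1.4, and Syt2 itself rose 1.58-fold (7.17 ± 1.06 against 4.51 ± 0.528 CPM, adjusted p = 0.00226). Syn1 to Syn2 changed by -0.15, with a count ratio of 0.990 ± 0.00743 in H1.4 CFT and 1.095 ± 0.0287 in WT H1.4. The opposite direction was seen in Slc17a7 to Slc17a6 (0.48).

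In these 3 pairs the H1.4 CFT and WT H1.4 libraries did not overlap, and each gave p = 0.0286 in an exact two-sided permutation test. That is the smallest value that 4 against 4 libraries allow, and adjusted over 8 pairs it was 0.0571, so none passed. Vamp2 to Vamp1 (0.34) and Syp to Synpr (-0.29) gave an exact p of 0.0571 each, Sv2a to Sv2b (0.55) gave 0.0857 and Snap25 to Snap23 (0.023) gave 0.771. In Sv2a to Sv2b the H1.4 CFT libraries were spread over 1.72 to 3.35 in the count ratio, against 1.53 to 1.86 in WT H1.4. Against GFP the smallest adjusted p was 0.114 for H1.4 CFT and 0.457 for WT H1.4, where 4 against 3 libraries cannot give an unadjusted exact p below 0.0571.

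**Figure D5:**
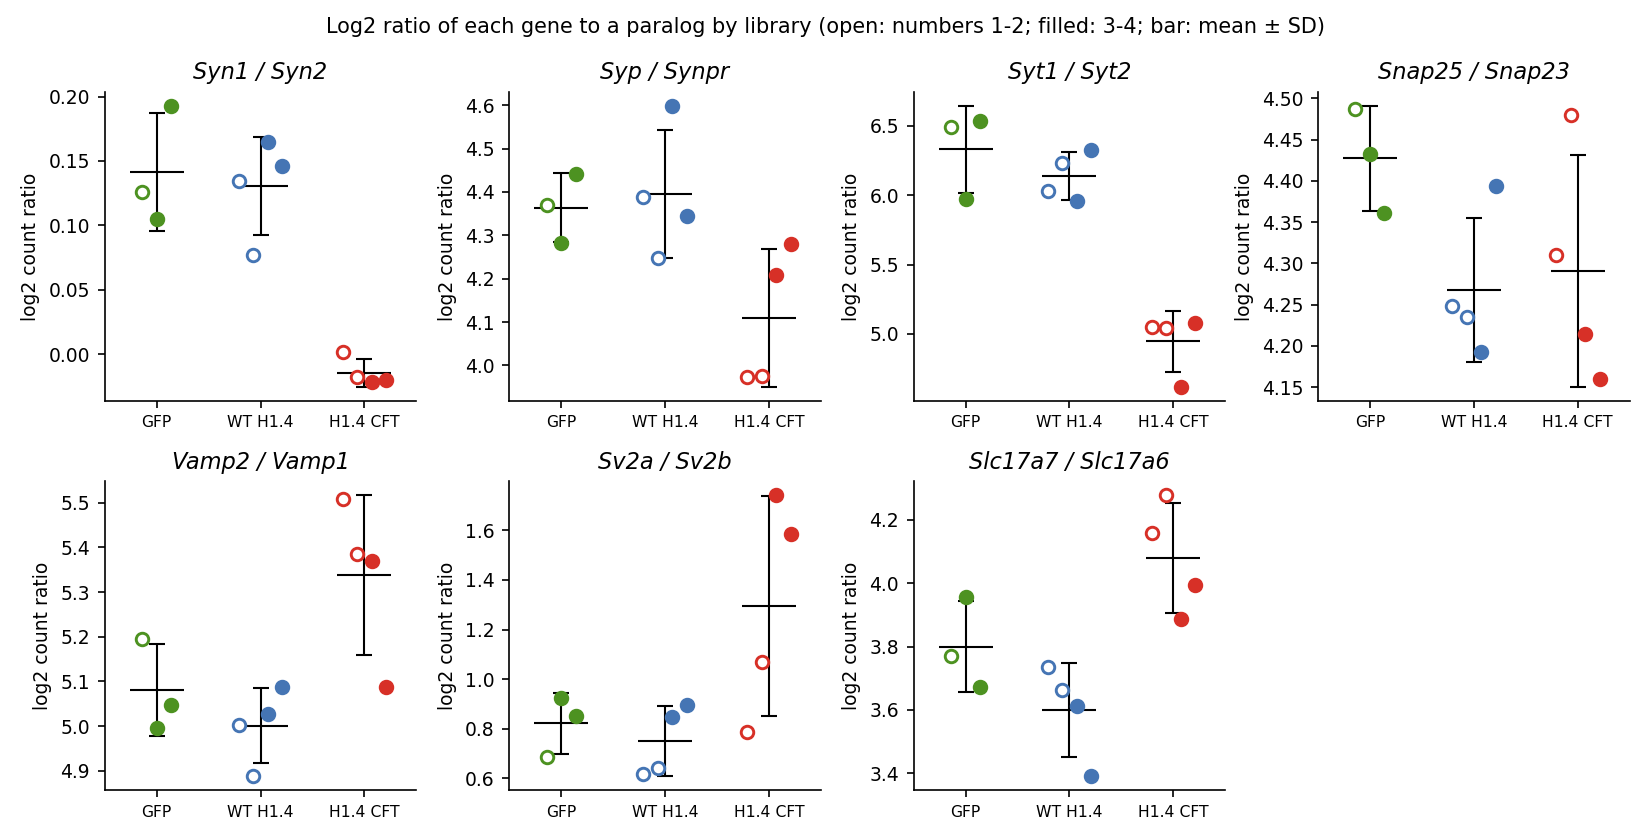
Log2 ratio of the counts of each of 7 genes to those of a related gene (vertical axes, which do not start at 0), 1 point per library, with the mean ± SD of each group. Open points are libraries numbered 1 and 2 and filled points those numbered 3 and 4. The H1.4 CFT points lie below those of WT H1.4 for Syt1 to Syt2 and Syn1 to Syn2 and above them for Slc17a7 to Slc17a6.

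Across the 11 libraries the members varied together to different degrees. Pearson's r of log2 CPM between 2 members ran from -0.013 (Syt1 with Snap25) to 0.97 (Syn1 with Syt1), with a median of 0.59 over 36 pairs. These values describe libraries that share groups, depth and number pairs. The mean of the standardised log2 CPM of the 9 genes was 0.71 to 0.78 in GFP, 0.0082 to 0.33 in WT H1.4, -0.28 and 0.25 in H1.4 CFT 1 and 2, and -1.44 and -1.45 in H1.4 CFT 3 and 4. H1.4 CFT library 2 thus lay within the range of WT H1.4 on this mean, and libraries 3 and 4 lay far below all others.

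Outside the vesicle lists, the 5 genes whose levels ran most like that mean, of 12298 genes compared by Pearson's r over 11 libraries, were Kcnh3 (0.985), Gpc5 (0.979), Ptk2b (0.974), Tmem163 (0.973) and Atp1b1 (0.972). Kcnh3 encodes a potassium channel of the forebrain, Ptk2b a calcium-responsive kinase, Gpc5 a glypican of the cell surface, Tmem163 a zinc-binding protein of synaptic vesicles that the wider list did not hold, and Atp1b1 a subunit of the sodium pump. Atp1b1 averaged 483 ± 11.04 CPM in GFP, 432 ± 14.8 CPM in WT H1.4 and 385 ± 42.0 CPM in H1.4 CFT, and Ptk2b averaged 53.7 ± 2.05, 40.3 ± 1.54 and 25.2 ± 8.32 CPM in the same order. All 5 had their highest group mean in GFP and their lowest in H1.4 CFT, and having been chosen for this pattern they were not tested for it.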

How the data were processed

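Polyadenylated RNA was sequenced in 11 libraries. The deposited files hold raw counts per gene symbol, and the authors aligned with STAR 2.7.2b to mRatBN7.2 and counted with HTSeq 0.10.0, per the submitters' processing notes. The annotation release and strand setting are not given in the sources used here. Each file held 42172 genes and 5 summary entries, which were left out.

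Counts were fitted in R 4.3.3 with edgeR 4.0.16: TMM scaling, filterByExpr by group (minimum count 10, minimum total 15), a robust quasi-likelihood test with a term for group over all 11 libraries, and Benjamini-Hochberg adjustment over the 17294 genes tested, with a threshold of 0.05. This left 8 residual degrees of freedom. Standard errors are the log2 fold change over the root of the F statistic, and intervals are 95%. P-values measure the spread between these libraries. The fit was tested on simulated counts that were independent between libraries and held no difference between number pairs. That check therefore does not cover the split between number pairs seen in these data. Ratios of paralog counts (1 added to each count) were tested by exact two-sided permutation over libraries (scipy 1.17.1), adjusted over 8 pairs.

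The members, gene lists, markers and pairs were chosen with earlier results of these data known. Named genes were the 9 members, their paralogs, per wider class up to 3 called genes by smallest p in H1.4 CFT versus WT H1.4, called genes of at least 2-fold, and the 5 genes (mean of at least 2 CPM, not a locus identifier) most like the members' mean. A few of these genes, and 1 of the 8 pairs, are left unreported. The alternatives were RLE scaling, DESeq2 1.42.0, limma-voom (limma 3.58.1), no filter, a filter of 5 CPM in 3 libraries, the replicate number as a block, a number-pair term, number pairs alone, only the groups compared, 5 counts added to paralog counts, and the omission of each library.

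Equal numbers were checked for pairing by correlating deviations from the group means. Between WT H1.4 and H1.4 CFT, r was 0.147, 0.172, 0.188 and 0.147 for libraries 1 to 4. With GFP, r for libraries 2 to 4 was 0.255, 0.123 and 0.160 on the H1.4 CFT side and 0.205, 0.112 and 0.0917 on the WT H1.4 side. All were above 0.1 in both comparisons of H1.4 CFT. Yet the highest r was not always with the equal number. Among WT H1.4 libraries, H1.4 CFT 1 and 2 had their highest r with library 2, and H1.4 CFT 3 and 4 with library 3. Among GFP libraries, H1.4 CFT 2 had its highest r with library 2, and H1.4 CFT 3 and 4 with library 4. For WT H1.4 libraries 2, 3 and 4 it was with GFP 2, 4 and 3. Each best partner thus came from the same number pair (1 and 2, or 3 and 4), and what the pairs share was not tested. The reported group and paralog tests did not pair the samples. The numbers entered the alternatives and the number-pair tests alone. The labels do not state a pairing. Promoters and gene overlaps come from RefSeq tables of GRCr8, which is not the build of the counts and served for sequences and neighbours alone.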

Additional observations from a re-analysis of the deposited data

Results flagged for a closer look

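In the balance of Syt1 to Syt2, H1.4 CFT library 3 stood apart from its group. Its log2 count ratio was 4.62, and the other H1.4 CFT libraries lay between 5.04 and 5.08, so that the gap took up 0.917 of the group's range. It was the 1 flag in 54 groups of 4 libraries examined this way, and chance flags about 1 in 20 such groups.

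For 6 members the difference between WT H1.4 and H1.4 CFT passed as unequal between libraries 1 and 2 and libraries 3 and 4. On the log2 scale, numbers 3 and 4 minus numbers 1 and 2, it was -0.19 for Syp, -0.23 for Syn1, -0.47 for Syt1, -0.16 for Vamp2, -0.36 for Stx1a and -0.38 for Slc17a7. The test behind these calls was added after the split of the libraries had been seen. Its p-values measure the spread within number pairs and not that across them. No label says what the numbers share, and the part of culture, preparation or sequencing in this split was not tested.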

How the results depend on the processing

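In H1.4 CFT versus WT H1.4 and against GFP, the counts of called members, wider vesicle genes and all genes stayed within 1.5 times of those reported under every alternative run, except that libraries numbered 3 and 4 alone gave 8 members for H1.4 CFT versus WT H1.4 in place of 5. In those libraries Stx1a was at -0.17 and Slc17a7 at -0.18 in that comparison, on the other side of 0 from the values over all libraries. The number-pair term called Syn2 in both comparisons (adjusted p = 0.0453 against WT H1.4 and 0.0447 against GFP) and lost Slc17a7 against GFP (adjusted p = 0.0571). The replicate block lost Slc17a7 in H1.4 CFT versus GFP (adjusted p = 0.0620) and changed no other call of a member.

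WT H1.4 against GFP, with 0 members, 2 wider vesicle genes and 163 of all genes called, depended on the setting. DESeq2 called 1 member and 268 of all genes, and no low-count filter gave 2 members, 7 wider genes and 462 of all genes. The replicate block gave 1 wider gene and 248 of all genes. The number-pair term gave 1 member, 6 wider genes and 404 of all genes, libraries 3 and 4 alone gave 3, 23 and 1596, and a fit of the groups compared alone gave 2, 8 and 348. With each library left out in turn, members ranged from 0 to 1 (1 without GFP 2), wider genes from 0 (without GFP 4) to 4 (without H1.4 CFT 4) and all genes from 44 (without GFP 3) to 306 (without GFP 2). All genes numbered 45 without GFP 4 and 105, 91, 103 and 84 without WT H1.4 1 to 4, where wider genes numbered 1 each, as they did without GFP 3.

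Members near 0 in WT H1.4 against GFP changed sign in some settings. Syn2 was at 8.9e-05 with RLE scaling, 6.8e-05 in DESeq2, 0.0029 with no filter, 0.0015 with the replicate block and 0.023 in libraries 3 and 4. Syt1 was at 0.0017 with no filter, 0.0011 with the block and 0.074 in libraries 3 and 4, Vamp2 at -0.0019 with the block and -0.0099 with the number-pair term, and Syn1 at 0.028 in libraries 3 and 4. Leaving out each library gave ranges that crossed 0 in this comparison for Syn1 (-0.030 to 0.0048), Syn2 (-0.021 to 0.020), Syt1 (-0.055 to 0.040) and Vamp2 (-0.013 to 0.031). They also crossed 0 for Stx1a (-0.026 to 0.084) and Slc17a7 (-0.025 to 0.069) in H1.4 CFT versus WT H1.4 and for Stx1a in H1.4 CFT versus GFP (-0.068 to 0.042). Among paralog balances they crossed 0 for Snap25 to Snap23 in H1.4 CFT versus WT H1.4 (-0.040 to 0.067), and in WT H1.4 against GFP for Syn1 to Syn2 (-0.028 to 0.015) and Syp to Synpr (-0.037 to 0.080). The cause of these changes was not tested. With 3 GFP libraries, no permutation test against GFP can pass 0.05. Libraries 1 and 2 alone could not be compared with GFP, which has 1 of them.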
